A study of Homo sapiens with 8 samples.

Results

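Immediate early genes are transcribed within minutes of a stimulus, before any new protein has been made, and are mostly silenced again soon after. The group described here holds 37 such genes, chosen by name from a list and all found among the 23713 rows of the deposited tables. They were measured by RNA sequencing in 8 libraries of NALM6, an established leukemia cell line of human B-cell precursors. Every culture carried a doxycycline-inducible construct for HMGN1, a nucleosome-binding protein: either the S20,24E mutant, labelled as deficient in nucleosome binding (SE), or wild type (WT). For 6 hours the cultures received either doxycycline (DOX, 100 ng/ml) or vehicle, so the groups were SE DOX, SE vehicle, WT DOX and WT vehicle, with 2 libraries each, labelled as biological replicates A and B. All were the same leukemia line in serum-containing medium, no group lacked a construct, and no acute stimulus of these genes is described in the labels. How the 2 cultures of a construct were kept apart, and whether each construct was 1 clone, the sources used here do not give. P-values therefore measure only the spread between these libraries, which may be technical.

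Growth factor, antigen receptor and stress signals reach these genes through the MAP kinases ERK, JNK and p38. ERK acts on the partners of SRF (serum response factor) at CArG boxes, while cAMP and calcium signals act on CREB at the sequence TGACGTCA. The first proteins made are transcription factors of the FOS, JUN, EGR, KLF and NR4A families, followed by inhibitors that end the response, such as the DUSP phosphatases and the ZFP36 proteins, which lead AU-rich mRNAs to decay. In B-lineage cells the same genes answer signals through the antigen receptor, and because their mRNAs are short-lived they also follow handling of the cells.

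The promoter sequences of 4 members show the elements through which these signals are known to act. They come from RefSeq (build GRCh38.p14), run 5′ to 3′ on the strand of the gene and end at the base before the start of the gene, with the element in capitals. EGR1 (chr5:138465329-138465478, plus strand) and SRF (chr6:43171119-43171268, plus strand) each hold 2 CArG boxes, and DUSP1 (chr5:172771196-172771345, minus strand) and JUND (chr19:18281623-18281872, minus strand) each hold 1 TGACGTCA.
EGR1: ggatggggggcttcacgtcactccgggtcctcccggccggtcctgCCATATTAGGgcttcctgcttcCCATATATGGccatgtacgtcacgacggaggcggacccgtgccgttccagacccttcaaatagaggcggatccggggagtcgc
SRF: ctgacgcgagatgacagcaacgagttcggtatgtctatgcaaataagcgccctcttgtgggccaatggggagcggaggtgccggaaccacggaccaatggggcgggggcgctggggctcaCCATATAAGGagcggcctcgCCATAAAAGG
DUSP1: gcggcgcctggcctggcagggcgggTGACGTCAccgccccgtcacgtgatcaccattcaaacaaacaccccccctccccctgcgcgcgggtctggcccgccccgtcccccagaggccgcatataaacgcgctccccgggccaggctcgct
JUND: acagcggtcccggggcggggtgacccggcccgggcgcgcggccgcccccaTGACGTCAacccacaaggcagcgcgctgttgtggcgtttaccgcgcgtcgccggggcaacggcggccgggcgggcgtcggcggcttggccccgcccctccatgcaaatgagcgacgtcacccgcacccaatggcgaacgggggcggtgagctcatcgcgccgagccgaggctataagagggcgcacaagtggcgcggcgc
Of the 37 genes, 28 had a promoter in the RefSeq table, with 38 windows. Within 250 bases upstream, a CArG box stood in windows of 3 members (EGR1, EGR2 and SRF) and in 1.16% of all 35116 windows. TGACGTCA stood in windows of 3 members (DUSP1, JUND and ZFP36L1) and in 1.65% of all windows. TATAAA, the core of the TATA box, was searched on the gene's strand and stood in windows of 8 members, FOS, FOSB and JUNB among them, and in 6.8% of all windows. The search pattern of the CArG box and the sequence TGACGTCA match both strands at the same place, and a match is a description of the letters only.

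Values are FPKM (fragments counted on a transcript, divided by its length and by the sequencing output), from an unnormalized and a normalized table. In the normalized table the summed ERCC spike-ins, synthetic RNAs added in equal volume to RNA of an equal number of cells, lay between 7050 and 7166 in all libraries, and its values are called the spike-in scale here. The files hold no read counts, so depth is unknown. The spike-in share of all unnormalized FPKM was 1.06% and 0.763% in SE DOX A and B, 0.826% and 0.719% in SE vehicle A and B, 0.538% and 0.569% in WT DOX A and B, and 0.531% and 0.558% in WT vehicle A and B. SE DOX A had the highest share, and all SE libraries lay above all WT libraries. HMGN1 itself stood at 1421 and 1061 unnormalized FPKM in SE DOX A and B, 1427 and 1066 in SE vehicle A and B, 792.9 and 795.3 in WT DOX A and B, and 809.2 and 796.0 in WT vehicle A and B. The libraries labelled DOX thus did not have a higher HMGN1 FPKM than the libraries labelled vehicle of the same letter. Whether this value counts RNA of the construct, the sources used here do not give, and DOX below means the label. All 14 B-lineage markers examined, PAX5 and EBF1 among them, passed the filter described next. Of the other markers, 2 of 9 myeloid, 1 of 6 adherent cell, 0 of 8 T-cell and 0 of 5 erythroid markers did.

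Several of the best-known early genes, FOS and EGR1 among them, were nearly silent. Of the 37 members, 23 entered the tests, as did 11465 of all 23621 genes. The minimum was a mean of 1 on the spike-in scale. The 14 below it were FOS, FOSB, FOSL1, EGR1, EGR2, EGR3, KLF2, KLF4, NR4A2, NR4A3, DUSP4, DUSP5, DUSP10 and SGK1, and 13 of them stayed below 1 unnormalized FPKM in every library. The exception was SGK1, a kinase of the serum response, which reached 1.08 in SE DOX A. KLF4 was listed at 0 in all 8 libraries of the unnormalized table and stood between 0.0948 and 0.105 in the normalized table, a floor whose origin is not given. FOS, the partner of JUN in AP-1, had 0.602 and 0.299 unnormalized FPKM in SE DOX A and B, 0.739 and 0.368 in SE vehicle A and B, 0.353 and 0.327 in WT DOX A and B, and 0.300 and 0.397 in WT vehicle A and B. EGR1, a zinc finger transcription factor with the CArG boxes printed above, had 0.767 and 0.459 in SE DOX A and B, 0.922 and 0.490 in SE vehicle A and B, 0.366 and 0.337 in WT DOX A and B, and 0.309 and 0.491 in WT vehicle A and B. Both genes were highest in the A libraries of SE in unnormalized FPKM, in vehicle as well as DOX, whereas on the spike-in scale FOS had 0.613 in WT DOX A, above 0.554 in SE DOX A. None of the 14 was tested in the main fit. Without the filter, 0 of all 37 members passed in any comparison, where 6 to 30 of 23621 genes did.

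The 23 members tested were ordinary in level. Their median mean level was 13.3 on the spike-in scale, against 15.4 over all genes tested, and 13 of them averaged at least 10. They ran from FOSL2, a FOS relative, at 2.04 to MCL1, an anti-apoptotic BCL2 relative whose mRNA turns over fast, at 78.3, which was at the 90.0 percentile of all genes tested. Among transcription factors JUND averaged 23.5, SRF 21.9, KLF6 13.3 and JUNB 12.3, while KLF10 stood at 5.89, NR4A1 at 3.65, JUN at 3.18 and ATF3 at 3.13. JUND, which many cells hold without stimulation, was thus the highest of the AP-1 members. Among inhibitors of the response the phosphatase DUSP1 averaged 31.1, the ERK phosphatase DUSP6 17.6 and DUSP2 5.11, and the mRNA decay factors ZFP36L1, ZFP36L2 and ZFP36 39.2, 23.0 and 16.7. Of the growth and survival genes, the antiproliferative BTG1 averaged 24.4, the stress gene GADD45B 5.19 and the kinase PIM1 3.76. Of the IER group, IER2 averaged 23.6, IER5 17.7, IER3 4.47 and CSRNP1, also a nuclear early gene, 2.71. In the order of levels, neighbours such as IER2 and JUND, or ATF3 and JUN, did not differ beyond the spread over libraries. MCL1 did not overlap any other member, with 55.4 at its lowest, in SE DOX A, against 45.0 for the highest library of ZFP36L1.

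**Figure D1:**
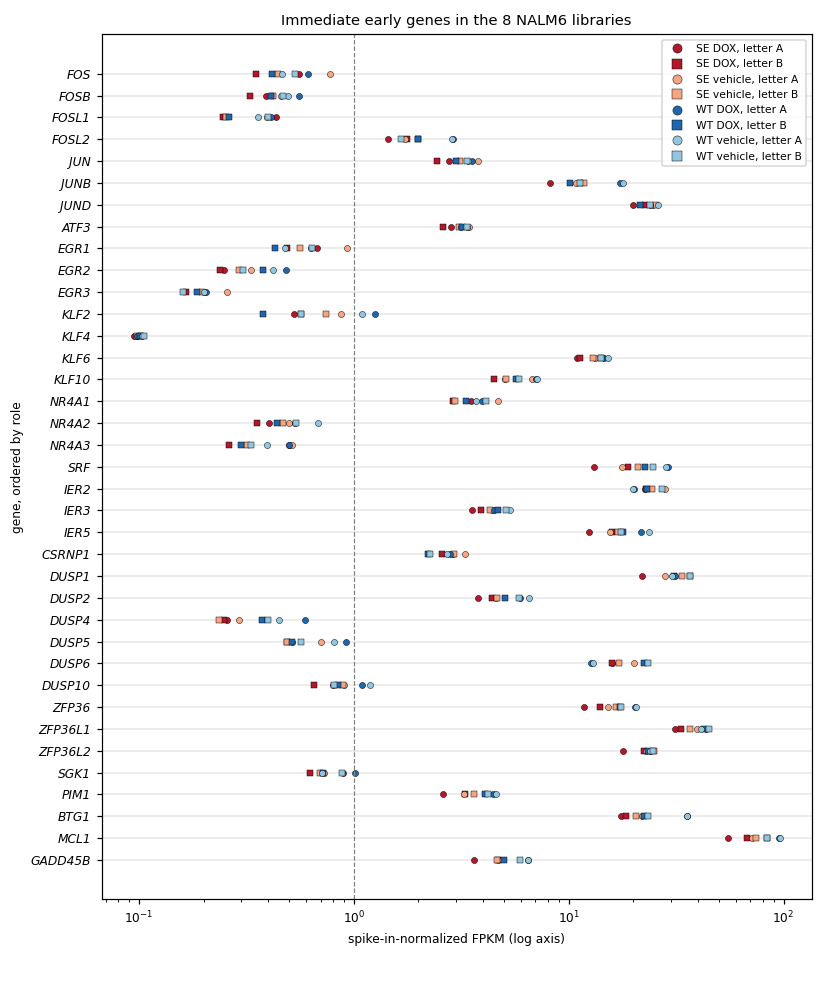
Levels of the 37 members in the 8 libraries, as FPKM on the spike-in scale on a log axis, ordered by role, with 1 point per library, coloured by group, circles for letter A and squares for letter B. The dashed line marks the minimum mean of 1: FOS and EGR1 lie below it in every library, while MCL1, between 55.4 and 95.8, is the highest member.

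In the fit of the 4 group means, no member was called between DOX and vehicle. In SE, 0 of 23 members passed a limma adjusted p of 0.05, where 6 genes of all tested (0.0523%) did. An unadjusted p below 0.05 was reached by 0 members and by 50 of the 11465 genes. This fit counts the difference between replicates A and B as error. With A and B taken as pairs, 4 members passed in SE, with 1663 genes of all tested. On the spike-in scale all 23 members had values below 0, as did 98.3% of all genes tested. Log2 fold changes ran from −0.18 (CSRNP1) to −0.40 (JUN), with a median of −0.24, and the median of all genes tested was −0.24 too. The members were thus about as far below SE vehicle as the typical gene. That general shift was uneven, since the median log2 level of all genes was 3.41 in SE DOX A and 3.76 in SE vehicle A, but 3.77 in SE DOX B and 3.90 in SE vehicle B. Without SE DOX A the members' median was −0.15. The direction rested on the scaling. In unnormalized FPKM 7 of 23 members lay below 0, against 50.5% of all genes, with a members' median of 0.01. After equal library medians 11 of 23 did, against 53.7% of all genes, with a members' median of 0.001. In bulk RNA, fewer cells and less RNA per cell cannot be told apart.

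JUN had 2.76 and 2.43 FPKM on the spike-in scale in SE DOX A and B, against 3.79 and 3.13 in SE vehicle A and B. Both DOX libraries lay below both vehicle libraries, and the log2 fold change was −0.40 (standard error 0.20, limma adjusted p = 0.537). In the unnormalized table the same libraries had 3.82 and 2.64 FPKM, against 4.18 and 3.04, so that SE DOX A stood above SE vehicle B and the groups overlapped. ZFP36 and KLF10 followed at −0.30 each, with adjusted p = 0.537. ZFP36 had 11.8 and 14.0 FPKM on the spike-in scale in SE DOX A and B, against 15.2 and 16.6 in SE vehicle A and B. Of the members tested, CSRNP1 had the value nearest to 0. It had 2.89 and 2.58 in SE DOX A and B, against 3.29 and 2.91 in SE vehicle A and B. Its log2 fold change was −0.18 (standard error 0.22, limma adjusted p = 0.540), and it was 0.07 in the unnormalized table.

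No member passed in WT either. Of 23 members, 0 did so, where 8 genes of all tested (0.0698%) did so. An unadjusted p below 0.05 was reached by 0 members and by 37 of the 11465 genes. Their log2 fold changes ran from −0.19 to 0.13 with a median of −0.05, against −0.03 for all genes, and the limma adjusted p was 1.00 for every member. IER3, an early gene linked to cell survival, was the lowest, with 4.48 and 4.68 FPKM on the spike-in scale in WT DOX A and B, against 5.33 and 5.13 in WT vehicle A and B. FOSL2 was the highest, with 2.88 and 1.99 in WT DOX A and B, against 2.85 and 1.66 in WT vehicle A and B, groups that overlapped. The log2 fold changes were −0.19 for IER3 (standard error 0.16) and 0.13 for FOSL2 (standard error 0.31). With 1 library left out, FOSL2 ran from −0.24 (without WT vehicle B) to 0.51 (without WT vehicle A), and was −0.12 without WT DOX A and 0.39 without WT DOX B. The members' median ran from −0.15 (without WT DOX A) to 0.02 (without WT DOX B), and was −0.12 without WT vehicle B. Across members the median 95% interval reached 0.45 to either side in both constructs, so that smaller log2 changes of a typical member were within the error of this fit.

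No member had a DOX effect that was called different between the constructs. The difference of the effects, SE minus WT, passed for 0 of 23 members and for 9 genes of all tested (0.0785%). An unadjusted p below 0.05 was reached by 0 members and by 33 of the 11465 genes. Values ran from −0.35 (JUN, standard error 0.28, limma adjusted p = 0.830) to −0.01 (DUSP2, standard error 0.24, adjusted p = 0.987), with a median of −0.19 on the spike-in scale, against −0.21 for all genes. The members' median was 0.03 in the unnormalized table and 0.02 after equal library medians, where DUSP2 stood at 0.21 and 0.20. The median 95% interval of this difference reached 0.63 to either side.

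**Figure D2:**
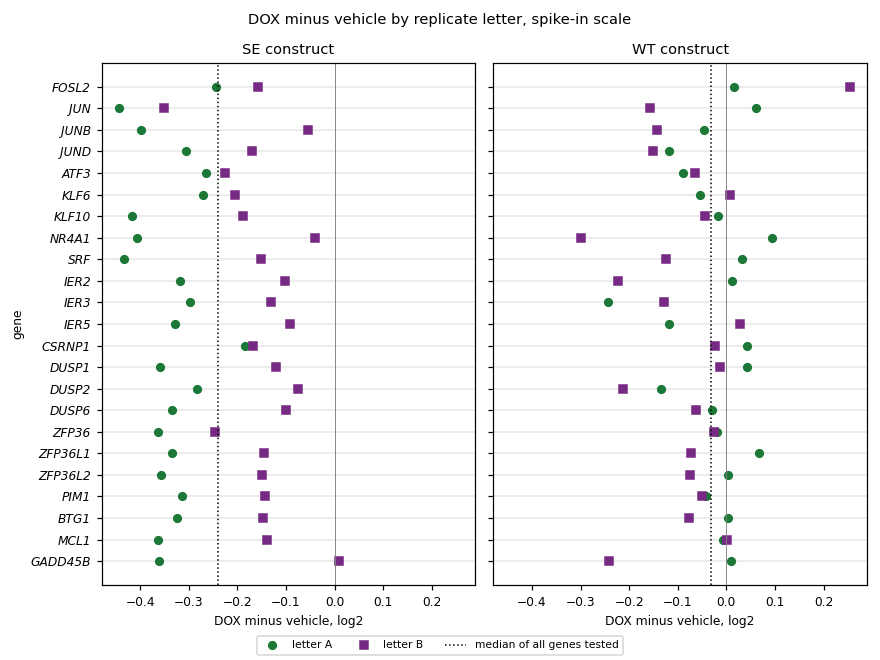
Log2 difference of DOX minus vehicle on the spike-in scale for the 23 tested members in SE (left) and WT (right), with a circle for the letter A libraries and a square for the letter B libraries. The dotted line is the median of all genes tested, −0.24 in SE and −0.03 in WT, and in SE the circles lie further below 0 than the squares, as for JUN at −0.44 and −0.35.

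On the spike-in scale most members were lower in SE than in WT, as most genes were. In vehicle 0 of 23 members passed, where 21 genes of all tested (0.183%) did. The unadjusted limma p was below 0.05 for 1 member, DUSP2, and for 816 of the 11465 genes. The members' median log2 fold change was −0.18, against −0.32 for all genes. In DOX 0 of 23 passed, where 12 genes (0.105%) did, with a median of −0.41, against −0.53. Here 10 members had an unadjusted p below 0.05, and so did 6929 of the 11465 genes. Without SE DOX B, 11 members passed in this comparison, all lower in SE, with 8286 genes of all tested. After the library medians of all genes were set equal, the members' medians turned positive, 0.11 in vehicle and 0.10 in DOX, while those of all genes were −0.02 in both. The direction of these differences thus depended on the scaling.

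SRF, the factor that binds CArG boxes, had the lowest log2 fold changes of SE over WT on the spike-in scale among the members tested. It had 13.2 and 18.9 FPKM on the spike-in scale in SE DOX A and B, against 28.9 and 22.6 in WT DOX A and B, and 17.8 and 21.0 in SE vehicle A and B, against 28.3 and 24.7 in WT vehicle A and B. All SE libraries lay below all WT libraries. The log2 fold change was −0.69 in DOX (standard error 0.23, limma adjusted p = 0.0765) and −0.45 in vehicle (standard error 0.23, adjusted p = 0.339). On the unnormalized scale SRF lay between 18.7 and 21.1 in the 4 SE libraries and between 21.4 and 23.2 in the 4 WT libraries, still without overlap but closer, and after equal library medians its log2 fold change was −0.18 in DOX and −0.15 in vehicle.

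CSRNP1 was the tested member with the highest SE values relative to WT. It had 3.99 and 2.81 unnormalized FPKM in SE DOX A and B, against 2.12 and 2.02 in WT DOX A and B, and 3.62 and 2.82 in SE vehicle A and B, against 2.10 and 1.95 in WT vehicle A and B. On this scale the SE and WT libraries did not overlap, whereas on the spike-in scale they overlapped in DOX but not in vehicle, with log2 fold changes of 0.12 in DOX (standard error 0.22, limma adjusted p = 0.605) and 0.31 in vehicle (standard error 0.22, adjusted p = 0.341). Without WT DOX B the value in DOX was −0.04, and after equal library medians the values were 0.63 in DOX and 0.61 in vehicle, further from 0 than those of SRF. DUSP2, a phosphatase of activated lymphocytes, had 4.61 and 4.65 FPKM on the spike-in scale in SE vehicle A and B, against 6.53 and 5.89 in WT vehicle A and B. Its log2 fold change was −0.41 (standard error 0.17, limma adjusted p = 0.339).

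Without overlap on the spike-in scale, 11 of 23 members were lower in all 4 SE than in all 4 WT libraries, against 65.2% of all genes, and 0 were higher, against 0.34%. After equal library medians the same order held for 1 member lower in SE (SRF), against 11.5% of all genes, and for 3 members higher in SE (JUND, CSRNP1 and ZFP36L2), against 7.84%. JUND had 28.3 and 24.9 unnormalized FPKM in SE DOX A and B, against 19.3 and 20.4 in WT DOX A and B, and 27.4 and 25.6 in SE vehicle A and B, against 20.6 and 22.0 in WT vehicle A and B.

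**Figure D3:**
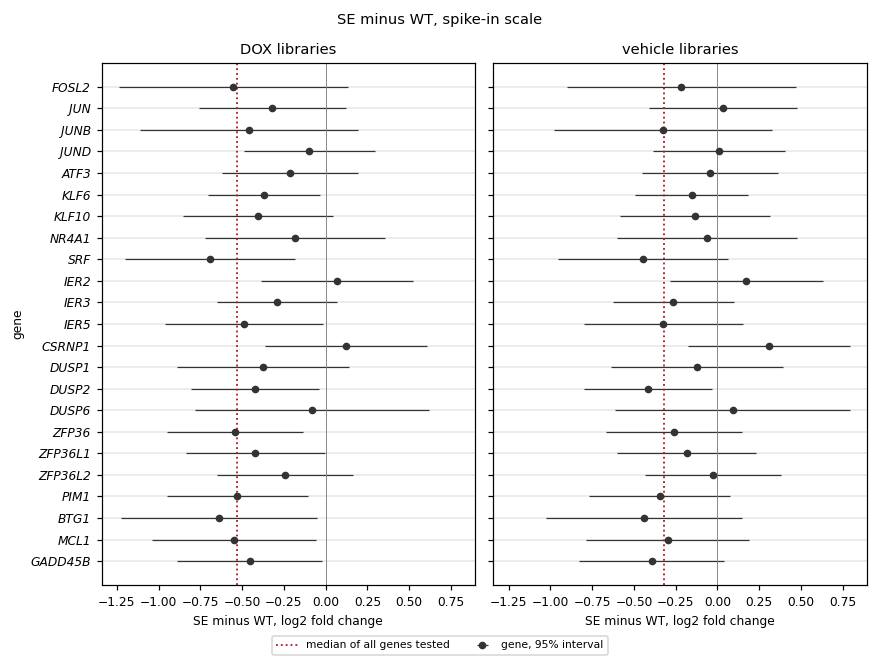
Log2 fold changes of SE over WT on the spike-in scale for the 23 tested members, in DOX (left) and vehicle (right), with 95% limma intervals and a dotted line at the median of all genes tested. SRF lies lowest at −0.69 in DOX and CSRNP1 highest at 0.31 in vehicle, and most members lie right of the dotted line, at −0.53 in DOX and −0.32 in vehicle.

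Many of these genes differed between the libraries lettered A and B. After equal library medians, 15 of 23 members were higher in both A libraries than in both B libraries of SE, against 31.9% of all genes, and 2 (SRF and DUSP1) were higher in both B libraries, against 40.2%, whereas on the spike-in scale the counts were 1 and 6 members, against 2.66% and 56.8% of all genes. On the spike-in scale the median A minus B of all genes in SE was −0.38 in DOX and −0.16 in vehicle (log2), and in WT it was 0.24 and 0.21. In the unnormalized table the counts were 16 and 2 members, against 31.7% and 40.8% of all genes. These orders were looked at after the data were seen, with 2 libraries a letter, and were not tested. The libraries of a letter share whatever the letter marks, so they are not separate observations of it.

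In WT the letters split the members both ways. After equal library medians 7 of 23 members were higher in both A libraries, against 38% of all genes, and 9 in both B libraries, against 35.8%, whereas on the spike-in scale these counts were 15 and 3, against 78.9% and 6.86% of all genes. After equal library medians the members' median log2 difference of A minus B in SE was 0.17 in DOX and 0.15 in vehicle, with 19 of 23 members above 0 in each, whereas on the spike-in scale it was −0.19 and 0.01, with 6 and 12 members above 0. Of all genes, 46.6% were above 0 in DOX and 45.7% in vehicle after equal library medians, and 6.74% and 18.1% on the spike-in scale. In both SE pairs alike, 17 of 23 members were above 0 after equal library medians, against 35.4% of all genes, and 6 on the spike-in scale, against 5.41%. In WT the members' median after equal library medians was −0.001 in DOX and −0.08 in vehicle, with 11 and 7 of 23 members above 0, against 52.5% and 50.1% of all genes. On the spike-in scale it was 0.22 and 0.12 in WT, with 18 and 17 members above 0, against 88.4% and 84.9% of all genes.

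NR4A1, an orphan nuclear receptor switched on by antigen receptor signals in lymphocytes, had the largest letter difference in SE among the 23 members tested. It had 4.91 and 5.20 unnormalized FPKM in the A libraries of SE (DOX, then vehicle), against 3.14 and 2.87 in the B libraries, while in WT it had 3.05 and 2.88 in the A libraries, against 3.07 and 3.65 in the B libraries. After equal library medians A stood 1.64-fold above B in SE, and this was the single tested member with A above B on the spike-in scale too. KLF10, a TGF-beta-inducible repressor, followed with 7.06 and 7.49 unnormalized FPKM in the A libraries of SE, against 4.90 and 5.05 in the B libraries, a ratio of 1.44. JUN had 3.82 and 4.18 in the A libraries of SE, against 2.64 and 3.04 in the B libraries, a ratio of 1.39. FOS and EGR1 below the minimum had the same order in SE, in the values given above, and kept it on the spike-in scale. There FOS had 0.554 and 0.778 in the A libraries of SE (DOX, then vehicle), against 0.351 and 0.442 in the B libraries. EGR1 had 0.674 and 0.934, against 0.488 and 0.564.

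DUSP6, the phosphatase that switches ERK off, went opposite ways in the constructs. It had 22.7 and 22.4 unnormalized FPKM in the A libraries of SE (DOX, then vehicle), against 17.5 and 17.1 in the B libraries, but 10.2 and 10.2 in the A libraries of WT, against 21.2 and 21.5 in the B libraries. After equal library medians B stood 2.07-fold above A in WT, the largest letter difference of any member tested, and A stood 1.30-fold above B in SE. IER2 did likewise, with 32.1 and 31.3 in the A libraries of SE, against 25.1 and 24.6 in the B libraries, and 16.2 and 15.8 in the A libraries of WT, against 22.0 and 25.0 in the B libraries. After equal library medians 7 of the 23 members had A above B in SE and B above A in WT. They were ATF3, KLF6, IER2, IER3, DUSP6, ZFP36L1 and ZFP36L2. Taken alone, A above B in SE held for 31.9% of all genes and B above A in WT for 35.8%. The share of all genes with both orders was not counted, so the 7 members cannot be set against it. On the spike-in scale 0 of them had A above B in SE, against 2.66% of all genes. JUNB, by contrast, overlapped between letters in SE but had 13.9 and 14.1 in the A libraries of WT, against 9.58 and 10.2 in the B libraries. BTG1 had A above B in both constructs, with 24.9 and 24.4 against 20.3 and 20.6 in SE, and 28.6 and 28.1 against 21.1 and 21.6 in WT. DUSP1 had B above A in both, with 31.0 and 31.1 in the A libraries of SE, against 33.9 and 33.7 in the B libraries, and 25.0 and 23.9 in the A libraries of WT, against 34.7 and 34.0 in the B libraries.

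Whether the letter or the treatment made the larger difference in SE depended on the scaling. After equal library medians the median absolute difference between letters was 0.13 (log2) over members in SE and 0.15 in WT, against 0.11 and 0.12 over all genes. The median absolute difference between DOX and vehicle was 0.02 over members in both constructs, against 0.03 over all genes in both. The letter difference was the larger in 20 of 23 members in SE, against 81.9% of all genes, and in 19 of 23 in WT, against 81.4%. On the spike-in scale the letter difference was the larger in 8 of 23 members in SE, against 60.5% of all genes, and in 19 of 23 in WT, against 89.3%. There the median absolute difference over members in SE was 0.18 between letters and 0.24 between DOX and vehicle.

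**Figure D4:**
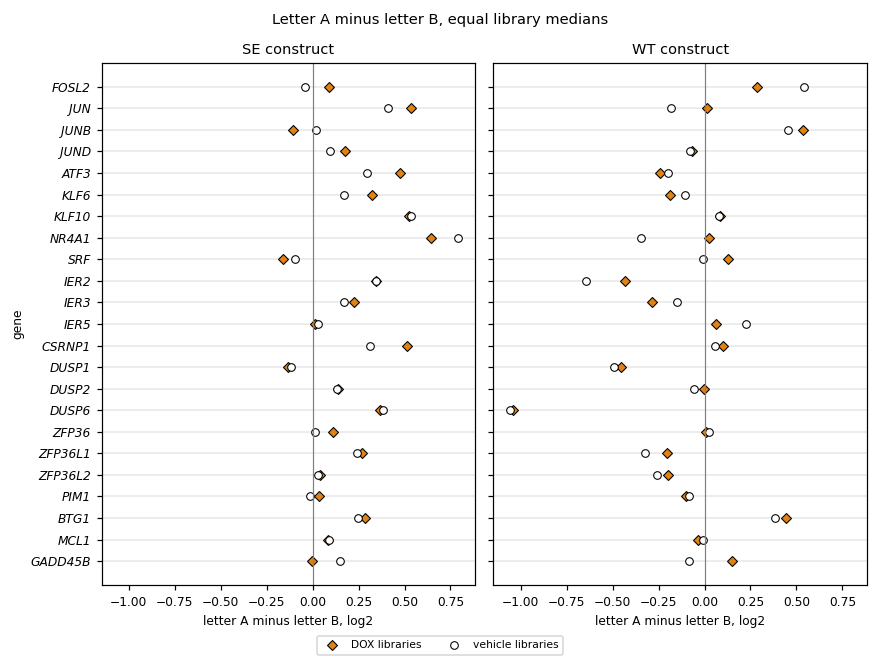
Differences between the A and the B libraries (A minus B, log2, after equal library medians) of the 23 tested members in SE and in WT, with a diamond for the DOX libraries and an open circle for the vehicle libraries. Most members of SE lie above 0, though on the spike-in scale 6 of 23 in DOX and 12 of 23 in vehicle would, with NR4A1 at 0.64 and 0.79, while in WT DUSP6 lies at −1.04 and −1.06.

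Other measures moved with the letters too, and their part in the result was not tested. HMGN1 had A above B in SE by 1.35-fold after equal library medians, and by 0.05 in DOX and 0.32 in vehicle (log2) on the spike-in scale. The heat shock genes, which answer stress of another kind, went the other way. After equal library medians all 9 tested had B above A in both constructs, against 40.2% of all genes in SE and 35.8% in WT. On the spike-in scale all 9 had B above A in SE, against 56.8% of all genes. In WT 3 then had A above B and 4 B above A, against 78.9% and 6.86%. HSPA1A, whose near-identical copy HSPA1B makes its own value uncertain, had 53.0 and 53.2 unnormalized FPKM in the A libraries of SE (DOX, then vehicle), against 64.9 and 61.6 in the B libraries, and 42.7 and 43.3 in the A libraries of WT, against 55.6 and 55.3 in the B libraries. The 9 myeloid markers summed to 4.86 and 5.55 unnormalized FPKM in the A libraries of SE, against 3.48 and 3.35 in the B libraries, and to 6.36 and 6.89 in the A libraries of WT, against 3.86 and 3.73 in the B libraries. Of these 9, LYZ and CD68 passed the filter, and ELANE, FCGR3A, S100A8 and S100A9 were at 0. The 6 markers of adherent cells summed to 5.55 and 5.60 in the A libraries of SE, against 3.10 and 3.43 in the B libraries, and to 2.72 and 3.21 in the A libraries of WT, against 2.75 and 2.97 in the B libraries, with TAGLN the 1 marker past the filter and LUM at 0. T-cell markers summed to at most 0.420, with CD3G, CD2 and CD7 at 0, and erythroid markers to at most 0.112, with HBB at 0. The 14 B-lineage markers summed to 2585 and 2620 in the A libraries of SE, against 2988 and 2947 in the B libraries, and to 2892 and 2909 in the A libraries of WT, against 3019 and 3055 in the B libraries.

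Of 30 further early genes listed, 21 were tested. Of these, 16 had A above B in SE after equal library medians, against 31.9% of all genes, and 3 had B above A, against 40.2%, whereas on the spike-in scale the counts were 4 and 4, against 2.66% and 56.8%. In WT 10 had A above B and 9 B above A after equal library medians, against 38% and 35.8% of all genes. On the spike-in scale the counts in WT were 15 and 3, against 78.9% and 6.86% of all genes. BTG2, an antiproliferative gene induced by p53 and growth signals, had 23.0 and 23.5 unnormalized FPKM in the A libraries of SE (DOX, then vehicle), against 12.3 and 12.5 in the B libraries, and 11.2 and 11.6 in the A libraries of WT, against 10.1 and 10.6 in the B libraries. TNFAIP3, an inhibitor of NF-kappaB signalling, differed between letters mainly in WT, with 8.75 and 8.58 in the A libraries, against 22.4 and 22.9 in the B libraries, and 24.4 and 24.9 in the A libraries of SE, against 23.8 and 23.7 in the B libraries. A list of ERK feedback genes outside the DUSP family had 6 tested genes. After equal library medians 5 of them (SPRY1, SPRY2, SPRED1, SPRED2 and ETV5) had A above B in SE, against 31.9% of all genes. In WT 5 (SPRY1, SPRY2, SPRED1, ETV5 and RASA2) had B above A, against 35.8%. On the spike-in scale 0 of 6 had A above B in SE, against 2.66% of all genes, and 2 of 6 had B above A in WT, against 6.86%.

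No gene of the upstream signalling lists passed. Between DOX and vehicle, 0 of 15 tested genes of the ERK cascade, 0 of 13 of the JNK and p38 cascades, 0 of 5 SRF cofactors, 0 of 8 CREB family members and coactivators, 0 of 7 ATF and MAF partners of AP-1 and 0 of 16 genes of deadenylation and decay passed in either construct. The same counts of 0 held for the difference of the DOX effects and for SE against WT. The median log2 fold change of the ERK cascade was −0.25 between SE DOX and SE vehicle and −0.02 between WT DOX and WT vehicle, and that of the decay genes −0.24 and −0.02. The genes of smallest p in these lists, in the order named, were SHC1, MAPK9, MKL1, CRTC1, BACH1 and TOB1 between SE DOX and SE vehicle, with log2 fold changes of −0.26 to −0.31 and a limma adjusted p of 0.537 each. Between WT DOX and WT vehicle they were BRAF, MAP2K7, ELK3, CRTC2, BATF3 and CNOT8, with an adjusted p of 1.00 each and BATF3 highest at 0.33. Of the heat shock genes, the other early genes and the ERK feedback genes, 0 passed either. After equal library medians the ERK cascade had 3 genes with A above B and 4 with B above A in SE. Of all genes, 31.9% and 40.2% did. In WT the counts were 5 and 4, against 38% and 35.8% of all genes. On the spike-in scale they were 0 and 9 in SE, against 2.66% and 56.8%. In WT they were then 13 and 0, against 78.9% and 6.86%.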

How the data were processed

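RNA was sequenced from 8 NALM6 libraries in 4 groups of 2. Per the labels' protocols, poly(A) RNA from an equal number of cells received 1 µl of ERCC spike-in mix diluted 1:1000, and libraries were made with a TruSeq kit. The authors deposited FPKM tables, 1 unnormalized and 1 normalized, from HISAT and Cufflinks 2.0.0 on hg19 according to the submitters' processing notes. The sources used here do not give how the normalized table was made. FPKM of genes with near-identical copies is uncertain, and since no source says that strand was used, overlapping antisense genes are uncertain too.

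Here, log2(normalized FPKM + 0.1) of genes with a mean of at least 1 over the libraries was fitted with limma 3.58.1 in R 4.3.3 (group means, mean-variance trend, Benjamini-Hochberg adjustment, threshold 0.05). All p-values are two-sided. Fold changes on this scale understate the change of low genes. The script was tested on simulated data. Tables were made with Python 3.11.15 and pandas 2.3.3. Equal library medians means that the median log2 level of the tested genes was set equal in all libraries. The members and lists were chosen with earlier results of these data known. With no member called, the text names in full the member of smallest p and those with the highest and lowest fold change per comparison, and in other lists the gene of smallest p between DOX and vehicle. Genes named for their letter order, and ZFP36, KLF10, JUND, FOS and EGR1, were chosen after their values were seen. The letter orders, and their repeats without equal medians, in the unnormalized FPKM and with a pseudocount of 1, were chosen after seeing the data. Other alternatives were the unnormalized table, equal medians, a pseudocount of 1, no filter, only the compared groups, small RNA names left out, a replicate block and leaving out each library.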

Additional observations from a re-analysis of the deposited data

How the results depend on the processing

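Members passing stayed at 0 of 23, or 0 of 37 without the filter, in every comparison and alternative with 2 exceptions. With a replicate block, which takes the letters as pairs, 4 members passed between SE DOX and SE vehicle (JUN, KLF10, SRF and ZFP36, all lower). Between SE and WT in DOX, leaving out 1 library gave 0 to 11 members, and 11 came without SE DOX B. These 11 were lower in SE there, but 7 of them were positive, without being called, in the unnormalized table and after equal medians. The number of genes passing depended more on the choices. With the replicate block it was 1663 between SE DOX and SE vehicle, 181 between WT DOX and WT vehicle, 227 for the difference of the effects and 24 between SE and WT in DOX. With the replicate block fitted after equal medians and without small RNA names, it was 0, 2 and 0 for the first 3 of these. With small RNA names left out alone it was 1, 0, 1, 55 (SE against WT in vehicle) and 520 (SE against WT in DOX). At an unadjusted p below 0.05, limma then had 14 genes between WT DOX and WT vehicle. With only the compared groups fitted it was 138 between SE DOX and SE vehicle, 32 between SE and WT in vehicle and 253 between SE and WT in DOX. The unnormalized table gave 5 for WT DOX and 5 for the difference, equal medians gave 5 for WT DOX, and no filter gave 19 between SE and WT in DOX. Leaving out 1 library gave 8 to 25 genes for SE DOX, 9 to 27 for WT DOX, 17 to 36 for the difference, 22 to 46 for SE against WT in vehicle and 14 to 8286 for SE against WT in DOX. Such a fit leaves a group with 1 library, which is assumed to vary like the others. The causes were not tested. The labels give the letters only as names of biological replicates, shared by a DOX and a vehicle library of a construct. They do not say whether these libraries are pairs. Same-letter deviations from the group means correlated across genes at 0.116 in SE and 0.0863 in WT (Pearson), but at 0.724 and 0.759 by rank. The letter counts on other scales stand in the report. With a pseudocount of 1 they were 17 and 2 members in SE, against 33.7% and 38.5% of all genes. In WT they were 6 and 11, against 37.1% and 37.3%. Depth is unknown, and 2 libraries a group limit the precision.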
